A study of Homo sapiens with 22 samples.

Results

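Genes used as markers of early neural tissue and of neural progenitors are described here: PAX6, SOX1, OTX2, SIX3, LHX2, ZIC1, ZIC2, HES5 and NES. They were chosen by name as a set of 9 of the 19974 protein-coding genes placed on chromosomes 1 to 22 and X by RefSeq (GRCh38.p14). For each gene, every peak region that touched the gene body or the 50 kb on either side of it was taken, which gave 410 of the 532810 regions in 4 deposited peak lists. The 9 windows cover 992474 bp, and 0 of them overlap each other.

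The series held 22 libraries of human cell lines in 6 groups, and it compared methods for mapping chromosome folding. HFFc6 is subclone c6 of a foreskin fibroblast line immortalised with telomerase, and H1 is an embryonic stem cell line; no genetic change or treatment beyond these lines is given in the labels. ATAC-seq maps accessible DNA by where the transposase Tn5 inserts, and it was run on 8 HFFc6 and 2 H1 libraries. Cut&Tag with an antibody to CTCF was run on 2 libraries whose cell line label is HFFc6, though their titles begin with HFF1. Each of these groups has 1 peak list, and the labels tie 3 of the 4 lists to their libraries. The other CTCF list carries hESC in its name, for human embryonic stem cells, but no label used here tells its libraries or its assay. It is referred to as the hESC-named CTCF list. A list holds no value per library, so no difference between the lines could be set against the spread between replicates, and no p-value is given. The titles of the HFFc6 ATAC libraries hold R and T marks that the labels do not explain, so separate cultures are not established. The cell line and the number of libraries behind a list cannot be told apart. The other 10 libraries (H3K4me3, H3K27ac and SMC1) were not analysed here.

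None of the samples is a neural cell. PAX6 and SOX1 encode transcription factors that mark the neural ectoderm as it forms, OTX2, SIX3 and LHX2 encode homeodomain factors of the forebrain and eye, and ZIC1 and ZIC2 encode zinc finger factors of the dorsal neural tube. HES5 encodes a basic helix-loop-helix repressor switched on by Notch signalling in neural progenitors, and NES encodes nestin, an intermediate filament protein of neural stem cells. OTX2 and ZIC2 are also known to be transcribed in pluripotent stem cells. Genes of this kind are regulated by many distal elements that are opened in some tissues and closed in others.

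Annotated start regions show how the lines differed at the genes themselves, and 6 of them are printed here: 1 that only HFFc6 opened, 3 that only H1 opened and 2 under no ATAC region of either line. Each runs 5′ to 3′ on the gene's own strand from 250 bases before a RefSeq start to 50 bases after it (GRCh38.p14). Capitals mark letters that match 1 of 9 short motifs on either strand. These are AGGNGGC for the core of the CTCF motif, ATGCAAAT for the octamer bound by POU factors, and GTGGGAA for RBPJ, the factor of Notch target genes. ACAAAG is a common SOX motif, with ACAATG as its other form. TGANTCA stands for AP-1, while GGAATG stands for TEAD. CCAAT boxes were searched too, with TATAAA for the TATA box. None of the matches in these 6 sequences overlaps another. A match describes the letters only.
OTX2, chr14:56805618-56805917, minus strand, open in H1 alone: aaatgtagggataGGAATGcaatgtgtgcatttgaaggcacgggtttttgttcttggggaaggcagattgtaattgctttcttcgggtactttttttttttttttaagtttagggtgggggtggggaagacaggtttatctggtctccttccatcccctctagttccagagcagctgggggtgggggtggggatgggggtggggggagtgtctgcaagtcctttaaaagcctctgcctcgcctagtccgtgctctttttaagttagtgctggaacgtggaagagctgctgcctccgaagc
OTX2, chr14:56810430-56810729, minus strand, open in neither line: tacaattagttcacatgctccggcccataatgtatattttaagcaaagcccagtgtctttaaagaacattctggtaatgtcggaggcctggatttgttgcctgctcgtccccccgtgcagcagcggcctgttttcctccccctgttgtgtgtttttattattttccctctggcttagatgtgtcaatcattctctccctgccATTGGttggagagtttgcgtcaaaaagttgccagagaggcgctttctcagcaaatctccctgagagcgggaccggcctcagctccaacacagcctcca
PAX6, chr11:31809910-31810209, minus strand, open in HFFc6 alone: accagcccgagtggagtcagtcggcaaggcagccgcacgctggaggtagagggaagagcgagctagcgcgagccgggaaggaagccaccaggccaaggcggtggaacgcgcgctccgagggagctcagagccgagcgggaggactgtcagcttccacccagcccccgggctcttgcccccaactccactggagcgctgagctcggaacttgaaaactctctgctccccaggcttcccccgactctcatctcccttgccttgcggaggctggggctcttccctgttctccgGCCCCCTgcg
PAX6, chr11:31805952-31806251, minus strand, open in H1 alone: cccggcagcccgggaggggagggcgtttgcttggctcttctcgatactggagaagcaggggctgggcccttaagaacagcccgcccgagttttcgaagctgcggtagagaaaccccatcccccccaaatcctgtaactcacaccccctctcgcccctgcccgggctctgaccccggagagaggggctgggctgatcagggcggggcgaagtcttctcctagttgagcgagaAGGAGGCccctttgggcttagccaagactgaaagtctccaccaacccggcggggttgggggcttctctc
SOX1, chr13:112066899-112067198, plus strand, open in H1 alone: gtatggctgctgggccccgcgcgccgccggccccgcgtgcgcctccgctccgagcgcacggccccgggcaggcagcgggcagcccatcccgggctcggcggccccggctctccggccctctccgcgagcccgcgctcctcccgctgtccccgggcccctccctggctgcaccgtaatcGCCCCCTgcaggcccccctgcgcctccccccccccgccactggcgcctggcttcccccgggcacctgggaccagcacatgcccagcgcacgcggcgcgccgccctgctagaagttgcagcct
HES5, chr1:2530214-2530513, minus strand, open in neither line: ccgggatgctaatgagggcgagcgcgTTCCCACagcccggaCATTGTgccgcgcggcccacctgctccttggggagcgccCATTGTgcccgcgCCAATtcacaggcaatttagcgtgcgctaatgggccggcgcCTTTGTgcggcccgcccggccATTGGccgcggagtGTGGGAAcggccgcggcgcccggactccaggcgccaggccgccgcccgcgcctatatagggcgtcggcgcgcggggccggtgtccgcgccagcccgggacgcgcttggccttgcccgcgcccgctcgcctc

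The HES5 sequence held 7 of these matches, and among them the RBPJ letters occurred at bases -224 to -218 and again at -81 to -75 from the start. Of all 22132 start regions of protein-coding genes, 6.01% held the RBPJ letters. In the first OTX2 sequence the single match was to the TEAD letters (bases -237 to -232), which 12.2% of all start regions held, and in the other OTX2 sequence it was to the CCAAT box, which 34.6% held. The SOX1 sequence and both PAX6 sequences held the CTCF core letters, as did 41.2% of all start regions. The octamer (1.65% of all start regions), AP-1 (6.15%) and TATA box (9.46%) letters occurred in none of the 17 start regions listed for 8 of the genes, the common SOX letters (13.6%) in 4 of them and their other form (8.16%) in 3. The SOX1 start region was 80% G and C, against a median of 62.3% over all start regions, while the OTX2 start open in H1 was 50.3%. SIX3 has no sequence printed.

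More accessible regions were found in H1 alone than in HFFc6 alone around 7 of the 9 genes. A region was called shared where it overlapped a region of the other line's list by at least 1 bp, and otherwise HFFc6-only or H1-only. The 9 windows held 48 HFFc6-only and 95 H1-only ATAC regions, beside 45 HFFc6 and 54 H1 regions that were shared. Counted the same way over all protein-coding genes, H1-only regions were the more numerous in 41.1% of windows and HFFc6-only regions in 48.4%. The median difference, HFFc6-only minus H1-only regions, was -7 over the 9 genes and 0 over all genes. Longer genes have longer windows, and neither the counts nor the shares of all genes were adjusted for window length.

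This count depended on which calls were kept. With only regions of a deposited −log10 q of at least 10 kept in both lists, 5 of the 9 genes had more HFFc6-only regions. H1-only regions were the more numerous at 4, and the totals were 50 and 51. Of the regions first called list-only, 37 HFFc6-only and 45 H1-only ones reached the limit. The rest of each total had been shared until the limit dropped the counterpart in the other list. It kept 85.2% of all HFFc6 and 48.4% of all H1 ATAC regions. Under the same limit HFFc6-only regions were the more numerous at 68.6% of all protein-coding genes and H1-only regions at 20.8%, and the median difference was 1 over the 9 genes and 2 over all genes. Bases gave another order from counts: 79927 bp of the windows lay under HFFc6 ATAC regions and 52002 bp under H1 regions, and the HFFc6 regions covered more bases at 7 of the 9 genes, as at 87.5% of all genes. H1 covered more at SOX1 and OTX2.

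**Figure D1:**
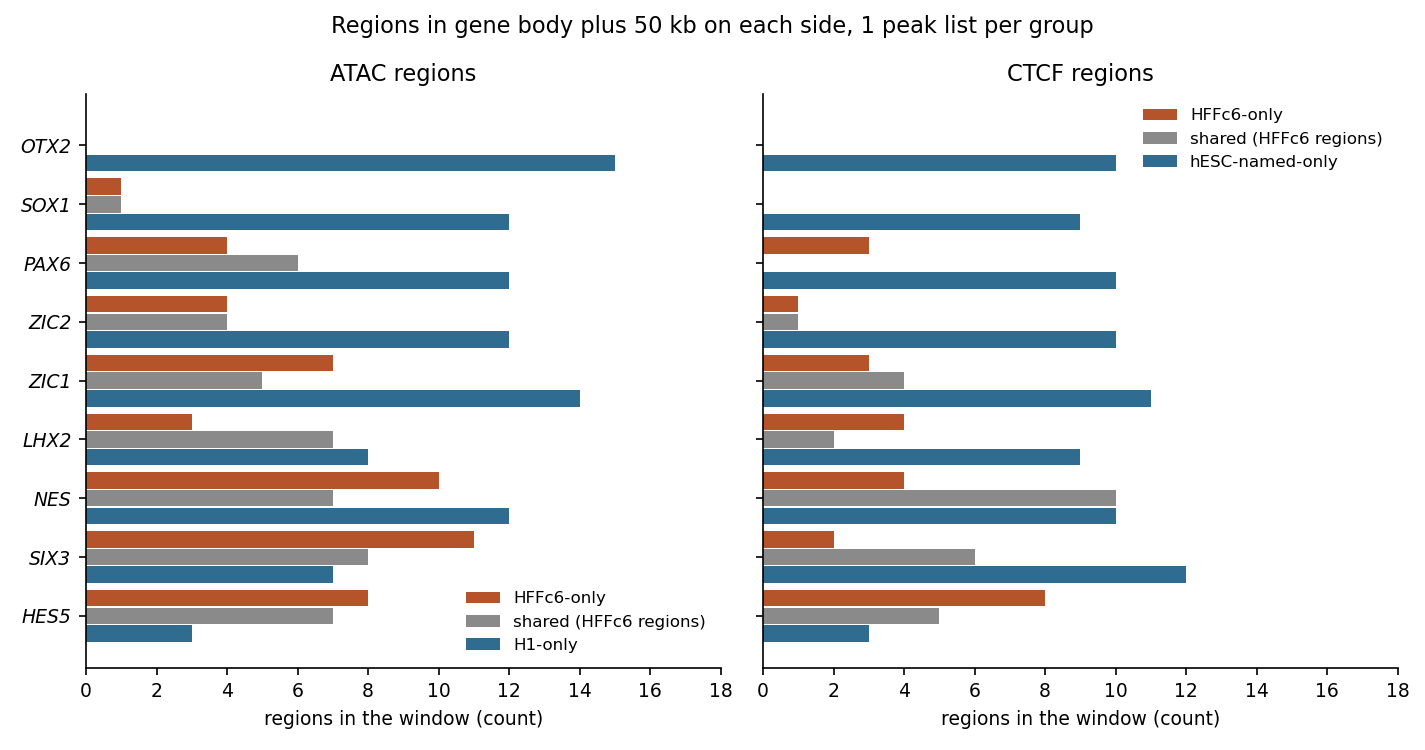
Number of ATAC regions (left) and CTCF regions (right) in the window of each gene, on a count axis that starts at 0. Each gene has 3 bars, from top to bottom the HFFc6-only, the shared (as counted in the HFFc6 list) and the H1-only or hESC-named-only regions; each count comes from 1 list, so there are no error bars. OTX2 has no bar for HFFc6 in either panel, and HES5 has the longer HFFc6-only bar in both.

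OTX2, a homeodomain factor of the forebrain and midbrain, had no HFFc6 ATAC region in its window and 15 in H1. No HFFc6 region beside at least 1 H1 region was found at 2.47% of all protein-coding genes, and a difference as low as that of OTX2, -15, at 2.34%. The 15 H1 regions lay on both sides of the gene (chr14:56799905-56810479) and inside it, and 7 of them kept a −log10 q of at least 10. The region with the highest fold enrichment was chr14:56855922-56856481, in the antisense long non-coding gene OTX2-AS1 and 45443 bp from OTX2, at a fold of 14.4; 9.37% of all H1 regions had a higher fold. Next came chr14:56846956-56847729, 36477 bp from the gene, at a fold of 12.5 and a −log10 q of 72.3. Inside the gene the stronger of the 2 H1 regions, chr14:56805844-56806152, had a fold of 7.24, and it reached into the start region printed above.

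SIX3 and LHX2, named above with OTX2 as homeodomain factors of the forebrain and eye, differed from it in that HFFc6 regions were present around both. SIX3 (chr2:44941702-44946071) had 11 HFFc6-only and 7 H1-only regions, a difference of 4, with 8 HFFc6 regions shared. A difference as high was found at 24.7% of all genes. Its strongest HFFc6-only region, chr2:44958862-44959622, lay between genes 12791 bp from SIX3 at a fold of 7.96, and its strongest H1-only region, chr2:44920744-44920981, lay 20721 bp away on the other side at a fold of 9.68. That H1-only region was the farthest of 6 on the low-coordinate side, where HFFc6 had other regions of its own.

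LHX2 (chr9:124011768-124033301), a LIM homeodomain factor of cortex and eye that is also known from hair follicles, had 3 HFFc6-only and 8 H1-only regions, and 7 HFFc6 regions were shared. The LHX2 difference of -5, as low as at 15.0% of genes, became 3 with the limit on q. The highest HFFc6 ATAC fold in its window belonged to a shared region, chr9:124054377-124055250, at 16.3, which 5.40% of all HFFc6 regions exceeded. The strongest HFFc6-only region, chr9:124078021-124079756, was 1736 bp wide with a fold of 11.7, and both lay in the long non-coding gene LOC107987037. Inside LHX2 itself the strongest H1-only region, chr9:124022829-124023128, had a fold of 11.0. A HFFc6-only region, chr9:124030359-124031538, also lay inside LHX2, at a fold of 9.84 and a −log10 q of 137.

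SOX1 and PAX6, the factors of early neural ectoderm, both had 12 H1-only regions. SOX1 (chr13:112067149-112071706) had 1 HFFc6-only region, and 1 HFFc6 region was shared; a difference as low as its -11 was found at 3.96% of all genes. The HFFc6-only region, chr13:112097032-112098066, lay 25326 bp from the gene at a fold of 4.62, and the shared HFFc6 region, chr13:112072315-112073054, had a fold of 2.60, which 89.0% of all HFFc6 regions exceeded. The strongest H1-only region, chr13:112079215-112079964, lay 7509 bp from the gene in the long non-coding gene SOX1-OT, at a fold of 9.66. With the limit on q, SOX1 had 1 HFFc6-only and 8 H1-only regions.

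PAX6 (chr11:31789026-31817961) had 4 HFFc6-only regions and 12 H1-only regions, with 6 HFFc6 regions shared. Its difference of -8, as low as at 7.27% of genes, became 1 with the limit on q. The highest HFFc6 ATAC fold of the 9 windows was at chr11:31778988-31780130, 8896 bp from PAX6 in the neighbouring gene ELP4, whose introns are known to hold PAX6 enhancers. This region had a fold of 18.3 and a −log10 q of 514, and 1.84% of all HFFc6 regions had a higher fold. It was shared. Its H1 counterpart, chr11:31779577-31779721, was 145 bp wide with a fold of 4.10 and a −log10 q of 3.82, and fold and q of different lists are not compared. The strongest H1-only region, chr11:31863314-31863910, lay 45353 bp away on the other side, in PAX6-AS1, at a fold of 12.6. Inside the gene the strongest H1-only region, chr11:31798729-31799091, had a fold of 9.28. The strongest HFFc6-only region, chr11:31803102-31804021, also lay inside PAX6, at a fold of 4.03.

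ZIC1 and ZIC2, the zinc finger factors, each lie beside a paralogue inside the same window, ZIC4 and ZIC5. ZIC1 (chr3:147409365-147416719) had 7 HFFc6-only and 14 H1-only regions, a difference of -7, as low as at 9.20% of genes. With 10 kb in place of 50 kb on each side its difference was 2. Its strongest H1-only region, chr3:147377547-147378303, lay 31062 bp from the gene at a fold of 15.3 and a −log10 q of 125, the highest H1 fold in the 9 windows, and 7.40% of all H1 regions exceeded it. Its strongest HFFc6-only region, chr3:147410530-147411873, lay inside the gene at a fold of 6.66. ZIC2 (chr13:99981784-99986765) had 4 HFFc6-only and 12 H1-only regions, and a HFFc6 region of 2025 bp, chr13:99980158-99982182, lay over its start at a fold of 9.12. Its strongest H1-only region, chr13:100019876-100020433, lay 33111 bp away at a fold of 11.5. The ZIC2 difference of -8, as low as at 7.27% of genes, was -3 with the limit on q.

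HES5, the Notch target, was the other gene with more HFFc6-only than H1-only regions, 8 and 3. A difference as high as its 5 was found at 18.8% of all genes. The gene (chr1:2528745-2530263) is short and its window also holds PLCH2, PANK4 and TNFRSF14. The strongest HFFc6-only region, chr1:2493526-2494957, lay 33788 bp away inside PLCH2, at a fold of 12.3. Closer to HES5 the balance turned, on few regions: within 10 kb of the gene the difference was -1. It was also -1 when each region was given to the gene with the nearest end, from 1 HFFc6-only and 2 H1-only regions. The H1-only region chr1:2529144-2529468 lay inside HES5 at a fold of 3.67, and no HFFc6 ATAC region overlapped the gene. HFFc6 had its nearest region, chr1:2525661-2527163, 1582 bp from HES5 in PANK4, with the highest −log10 q of the HFFc6 ATAC regions in the 9 windows, 927, and it was shared with H1.

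NES had the closest counts, 10 HFFc6-only and 12 H1-only regions. The difference of -2, as low as at 33.1% of genes, became 3 with the limit on q and 4 when sharing needed 50% of a region to be covered. Its strongest H1-only region, chr1:156673557-156674126, lay inside the gene (chr1:156668763-156677407), 3485 bp from the start by its summit, at a fold of 12.7 and a −log10 q of 130. Nestin is known for a neural enhancer within an intron, and exons and introns were not used here to place the region. The strongest HFFc6-only region, chr1:156684335-156684957, lay 6928 bp from the gene at a fold of 6.17.

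**Figure D2:**
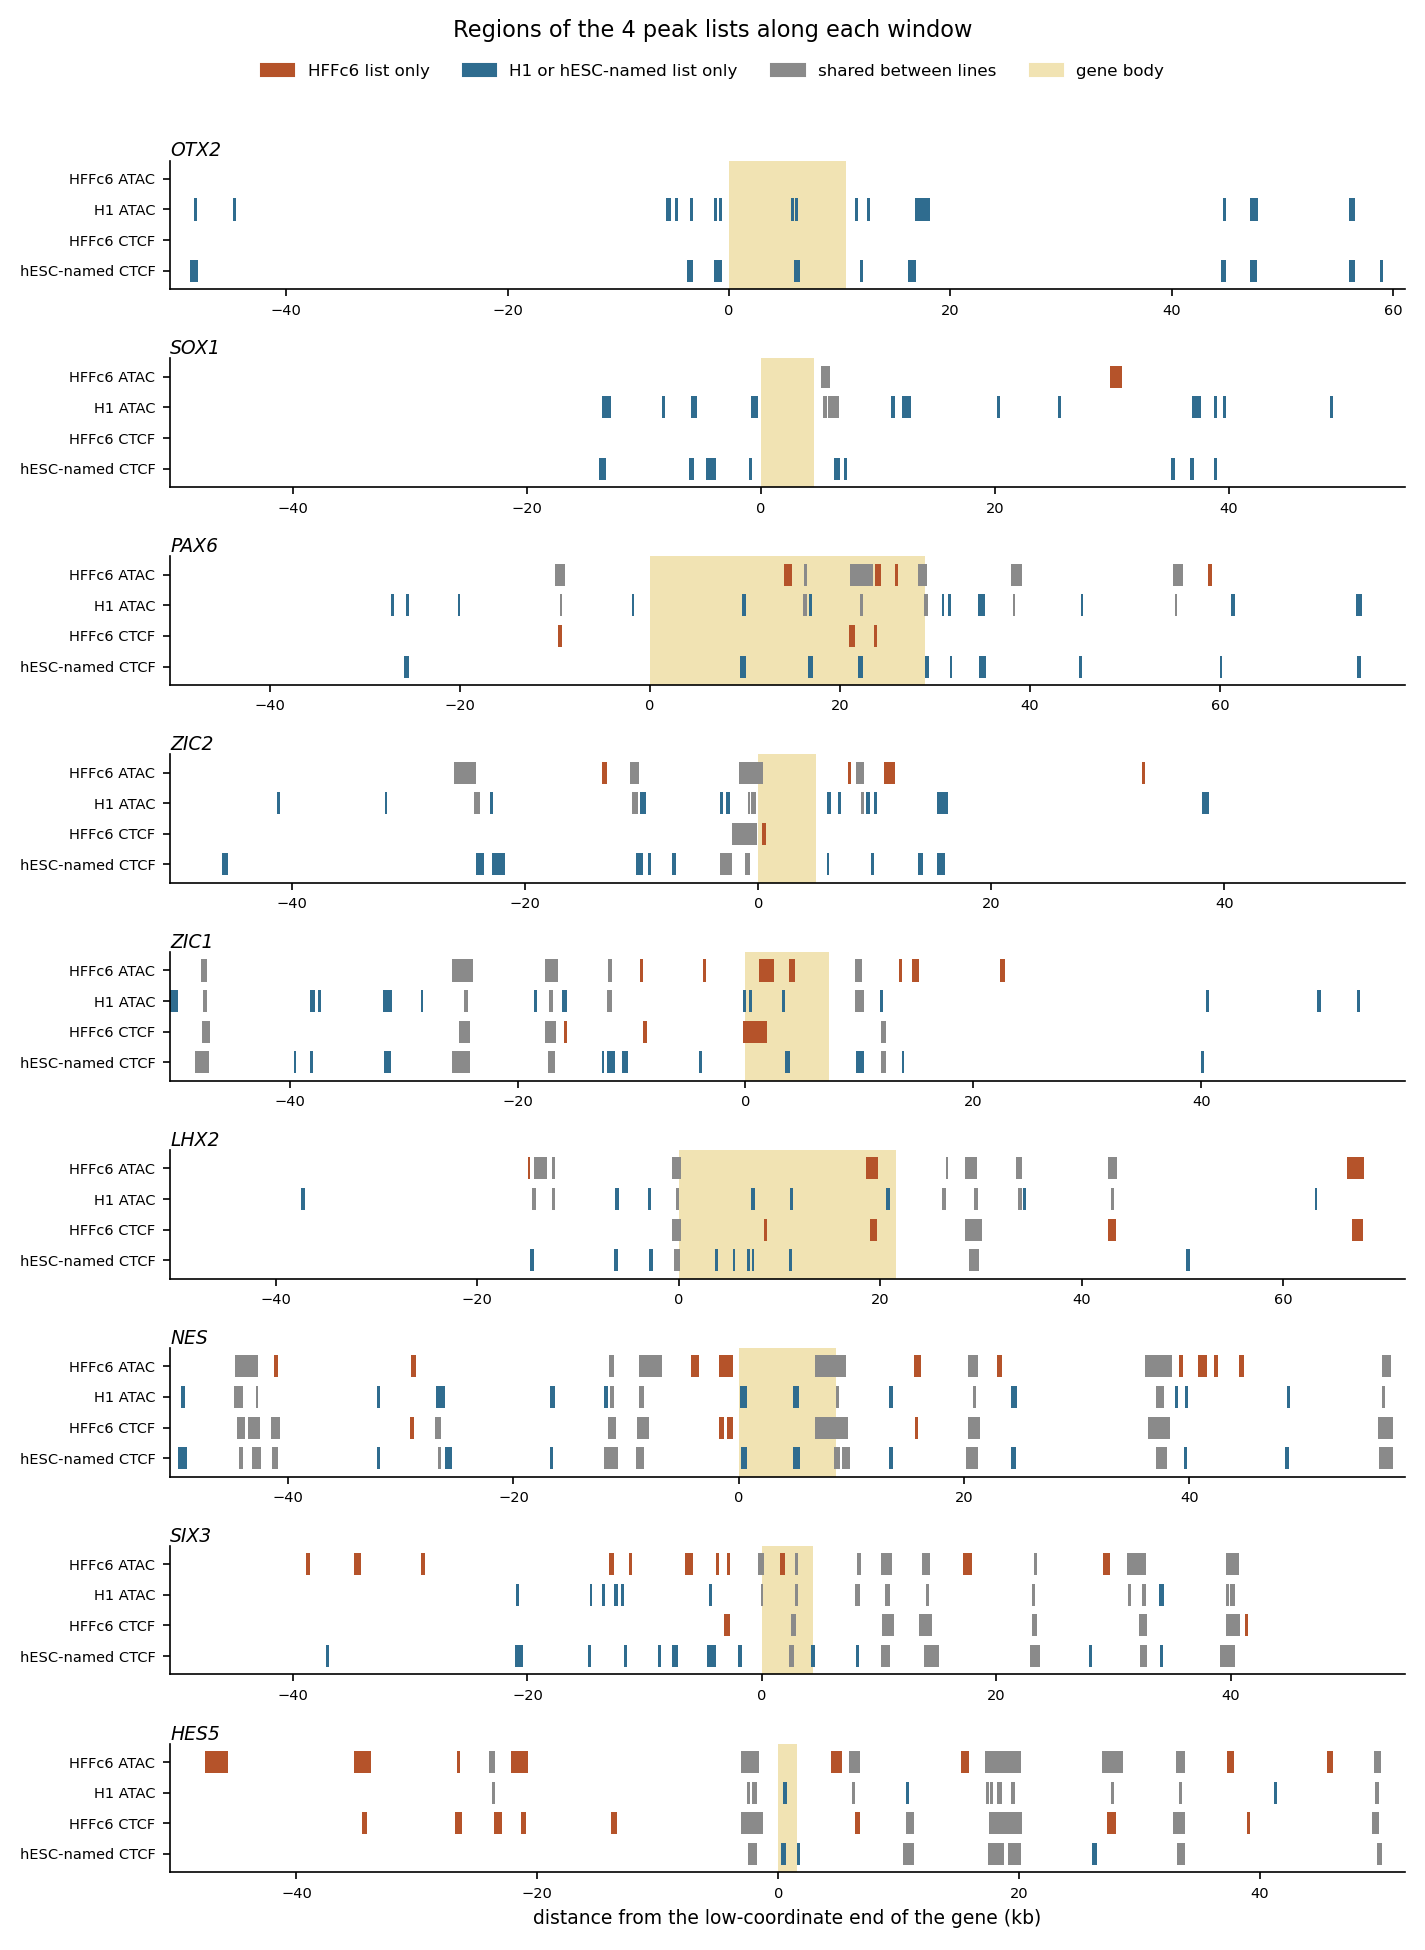
Position of every region in the 9 windows, in kb from the low-coordinate end of each gene, with the gene body shaded; each panel has 4 rows, with ATAC above CTCF and, within each assay, HFFc6 above H1 or the hESC-named list. Colours separate regions found in the HFFc6 list only, in the H1 or hESC-named list only, and in both; OTX2 has empty HFFc6 rows, and the H1 row of OTX2 has 15 marks.

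Most regions lay outside the 9 genes, shared or not, but so did most of each window. The genes are 1519 to 28936 bp long, and 50 kb was added on each side. No share over all genes was computed, so the places are a description only. Of the 48 HFFc6-only ATAC regions, 7 lay in the member gene, 6 in another protein-coding gene, 14 in a long non-coding gene and 21 between genes. Of the 95 H1-only regions, 12 lay in the member gene, 11 in another protein-coding gene, 39 in a long non-coding gene and 33 between genes. The long non-coding genes OTX2-AS1, SOX1-OT and PAX6-AS1 were among those that held them. The median distance to the gene was 13290 bp for the HFFc6-only and 12634 bp for the H1-only regions, and for the shared regions it was 11076 bp in HFFc6 and 11897 bp in H1. Inside the member gene lay 8 of the 45 shared HFFc6 regions and 5 of the 54 shared H1 regions.

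At the gene ends, accessible regions were found in both lines for 6 genes and in H1 alone for 3. Within 1 kb of either end, both lists had a region at PAX6, SOX1, SIX3, NES, LHX2 and ZIC2, as at 70.5% of all protein-coding genes. H1 alone had one at OTX2, HES5 and ZIC1, as at 8.29% of all genes. No gene of the 9 had one in HFFc6 alone (5.55% of all genes) or in neither line (15.7%). With the limit on q, both lists had a region at 2 of the 9 genes. The counts also depended on the distance allowed: within 2 kb of an end, both lists had a region at 8 genes and H1 alone at 1. The shares of all protein-coding genes at these settings were not computed, so neither change is a result about the 9.

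The annotated starts gave a finer view than the gene ends. Of the 17 start regions, 5 were open in both lines (59.2% of all 22132). HFFc6 alone opened 3 (8.45%), H1 alone opened 4 (8.34%), and 5 were open in neither (24.0%). PAX6 held most of the 17 starts, among them all 3 open in HFFc6 alone and most of the 5 open in neither. These counts therefore describe mainly a single gene and not the set. NES, LHX2 and ZIC2 were open at the start in both lines. The SOX1 start region was open in H1 alone, with 50 of its 300 bases under the H1 region, and the ZIC1 start in H1 alone, with 192 bases. The ZIC1 start also had 270 bases under a HFFc6 CTCF region. OTX2 was open at the start nearer the middle of the gene in H1 alone (136 bases) and in neither line at the other start. The HES5 start, with its RBPJ letters, lay under no ATAC region of either line, and 180 of its bases lay under a hESC-named CTCF region.

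PAX6, with 9 annotated starts, was open at different starts in the lines. HFFc6 alone covered the start regions chr11:31803624-31803923 (all 300 bases), chr11:31809910-31810209 (124 bases) and chr11:31812671-31812970 (284 bases). The HFFc6 region over chr11:31809910-31810209 was itself a shared one, chr11:31810086-31812455, 2370 bp wide. It overlapped the H1 region chr11:31811086-31811496, 411 bp wide, which did not reach that start region. H1 alone covered chr11:31805952-31806251, with 154 bases. Both covered chr11:31804992-31805291 and the outermost start, chr11:31817912-31818211, where all 300 bases lay under a region of each line. The remaining 3 starts lay under no region. At the outermost start the HFFc6 region had a fold of 2.23 and a −log10 q of 9.31, and the H1 region a fold of 6.32 and a −log10 q of 32.6; values from different lists are set side by side and not compared.

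The regions around these genes had lower fold enrichment than was usual for their lists. The median fold enrichment of the 93 HFFc6 ATAC regions was 3.87, against 6.08 over the whole list of 155746. For the 149 H1 ATAC regions it was 4.47, against 5.78 over 189982. The CTCF regions had medians of 4.40 in HFFc6 (6.22 over the list) and 4.90 in the hESC-named list (6.88). In both lines the shared ATAC regions had the higher median fold, 4.60 against 3.55 for HFFc6-only regions, and 4.86 against 4.33 for H1-only regions. The whole lists had the same order, 7.88 against 5.26 in HFFc6 and 7.82 against 5.21 in H1. A −log10 q of at least 10 was reached by 77.1% of the HFFc6-only regions (95% Wilson interval 63.5 to 86.7%), against 81.9% over the whole list. It was reached by 47.4% of the H1-only regions (37.6 to 57.3%), against 38.9% over the whole list. These intervals, like the others given here, cover counting error only. HFFc6 ATAC regions had a median width of 656 bp and H1 regions of 304 bp.

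**Figure D3:**
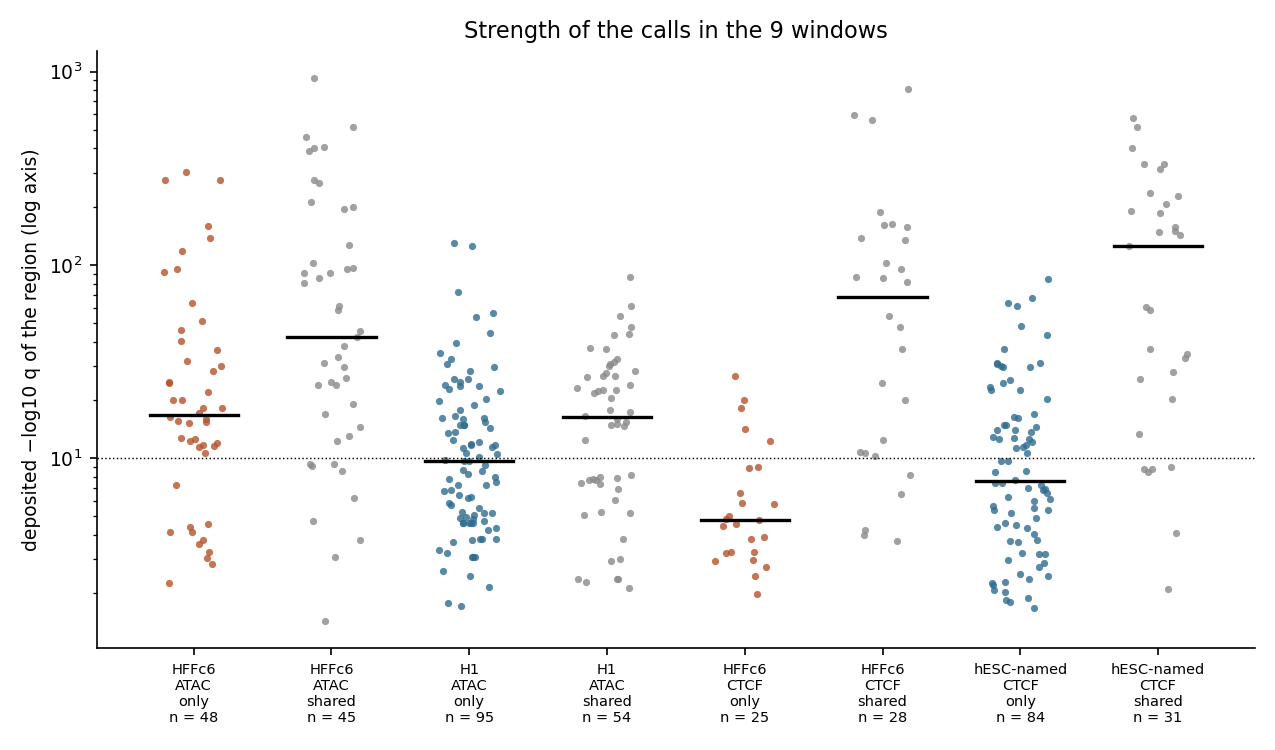
Deposited −log10 q of every region in the 9 windows on a log axis, 1 point a region, with HFFc6 lists left of H1 or hESC-named lists in each assay; black bars are medians and the dotted line is a −log10 q of 10. Shared regions have higher medians than list-only regions in each of the 4 lists.

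CTCF, the zinc finger protein that holds loop anchors and domain borders, had more list-only regions in the hESC-named list around 8 of the 9 genes. The windows held 25 HFFc6-only and 84 hESC-named-only CTCF regions, with 28 HFFc6 and 31 hESC-named regions shared. Over all protein-coding genes, 48.6% had more hESC-named-only regions and 36.8% more HFFc6-only regions. HES5, with 8 HFFc6-only and 3 hESC-named-only regions, was the exception, and its difference of 5 turned to -1 with the limit on q and also with 10 kb on each side. The median difference over the 9 genes was -8, and over all genes 0. Only LHX2 also changed direction among the others, to 1 with the limit on q.

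OTX2 and SOX1 had no HFFc6 CTCF region, beside 10 and 9 regions in the hESC-named list, a pattern found at 3.71% of all genes. PAX6 had 3 HFFc6-only and 10 hESC-named-only regions and none in common, and ZIC2 had 1 HFFc6-only and 10 hESC-named-only. LHX2 had 4 HFFc6-only and 9 hESC-named-only regions, and ZIC1 had 3 and 11. SIX3 had 2 HFFc6-only and 12 hESC-named-only regions, and NES 4 and 10. Shared CTCF regions were concentrated at a few genes: NES had 10 of the 28 as counted in HFFc6, SIX3 6, HES5 5 and ZIC1 4. The same genes had the most HFFc6 CTCF regions of any class, 14 at NES, 13 at HES5, 8 at SIX3 and 7 at ZIC1.

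The strongest CTCF regions were shared ones. The highest HFFc6 CTCF fold, 12.3, was at chr1:156689083-156690162, 11676 bp from NES, where the hESC-named list also had a region of fold 18.1. The highest hESC-named fold, 20.8, was at chr2:44980816-44982091, 34745 bp from SIX3, and the HFFc6 region there had a fold of 10.2. At both places an ATAC region was found in each line. The HFFc6-only CTCF regions were weak: 20% of the 25 (8.86 to 39.1%, Wilson) passed the limit on q, against 52.9% of all such regions in the list. Of the 84 hESC-named-only regions 44.0% did (33.9 to 54.7%), against 44.6% over the list.

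Of the HFFc6 ATAC regions in the windows, 48.4% (38.5 to 58.4%) were found in H1, against 34.7% of the whole HFFc6 list, and of the H1 regions 36.2% (29.0 to 44.2%) were found in HFFc6, against 31.8% of the whole H1 list. With 50% of the region to be covered, the HFFc6 share was 12.9% and the H1 share 33.6%. With the limit on q they were 31.5% and 34.6%. The shares of the whole lists at these settings were not computed, so neither change is a result about these genes. HFFc6 ATAC regions in the windows had a median width of 656 bp and H1 regions of 304 bp, and the part of width in the 50% shares was not tested. Of the HFFc6 CTCF regions, 52.8% (39.7 to 65.6%) were found in the hESC-named list, against 50.9% of the whole list. Of the 115 hESC-named CTCF regions, 31 were found in HFFc6 (interval 19.7 to 35.7%), against 41.3% of the whole list.

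For most classes, the share of CTCF and accessible regions that coincided in the windows had an interval that held the share of the whole list. Of the HFFc6 CTCF regions 84.9% (72.9 to 92.1%) lay in a HFFc6 ATAC region, against 85.0% of the list, and 71.3% (62.5 to 78.8%) of the hESC-named regions lay in a H1 ATAC region, against 72.6%. For shared CTCF regions the shares were 89.3% of the HFFc6 ones (83.0% of the list) and 90.3% of the hESC-named ones (83.9%). For list-only CTCF regions they were 80% of the HFFc6 ones (87.1%) and 64.3% of the hESC-named ones (64.7%). Of all HFFc6 ATAC regions in the windows 45.2% lay on a HFFc6 CTCF region, against 43.9% of the list. For the shared ATAC regions the share was 64.4% in HFFc6 (69.8% of the list) and 68.5% in H1 (65.2%). The HFFc6-only ATAC regions lay on a HFFc6 CTCF region in 13 of 48 cases, 27.1% (16.6 to 41.0%), against 30.1%.

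The H1 ATAC regions, and the H1-only ones among them, had intervals that did not hold it. A hESC-named CTCF region was found on 52 of the 95, 54.7% (44.7 to 64.4%), against 30.1% of all H1-only regions, and for all H1 ATAC regions in the windows the share was 59.7% (51.7 to 67.3%), against 41.3%. By gene, the count was 11 of 12 at NES, 9 of 15 at OTX2, 7 of 12 at PAX6, 6 of 12 at ZIC2, 5 of 7 at SIX3, 5 of 12 at SOX1, 4 of 8 at LHX2, 2 of 3 at HES5 and 3 of 14 at ZIC1. The hESC-named-only CTCF regions that overlapped a H1 ATAC region had a median fold of 4.33 (54 regions), and those that overlapped none had 3.54 (30 regions). The 31 shared hESC-named CTCF regions had a median fold of 9.11. The PAX6 region chr11:31798729-31799091 and the OTX2 region chr14:56846956-56847729, named above as strong H1 ATAC regions, each overlapped a hESC-named CTCF region, of fold 9.11 and 11.9. Regions of 1 window share their list and their neighbourhood, so the interval describes counting error and is no test.

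**Figure D4:**
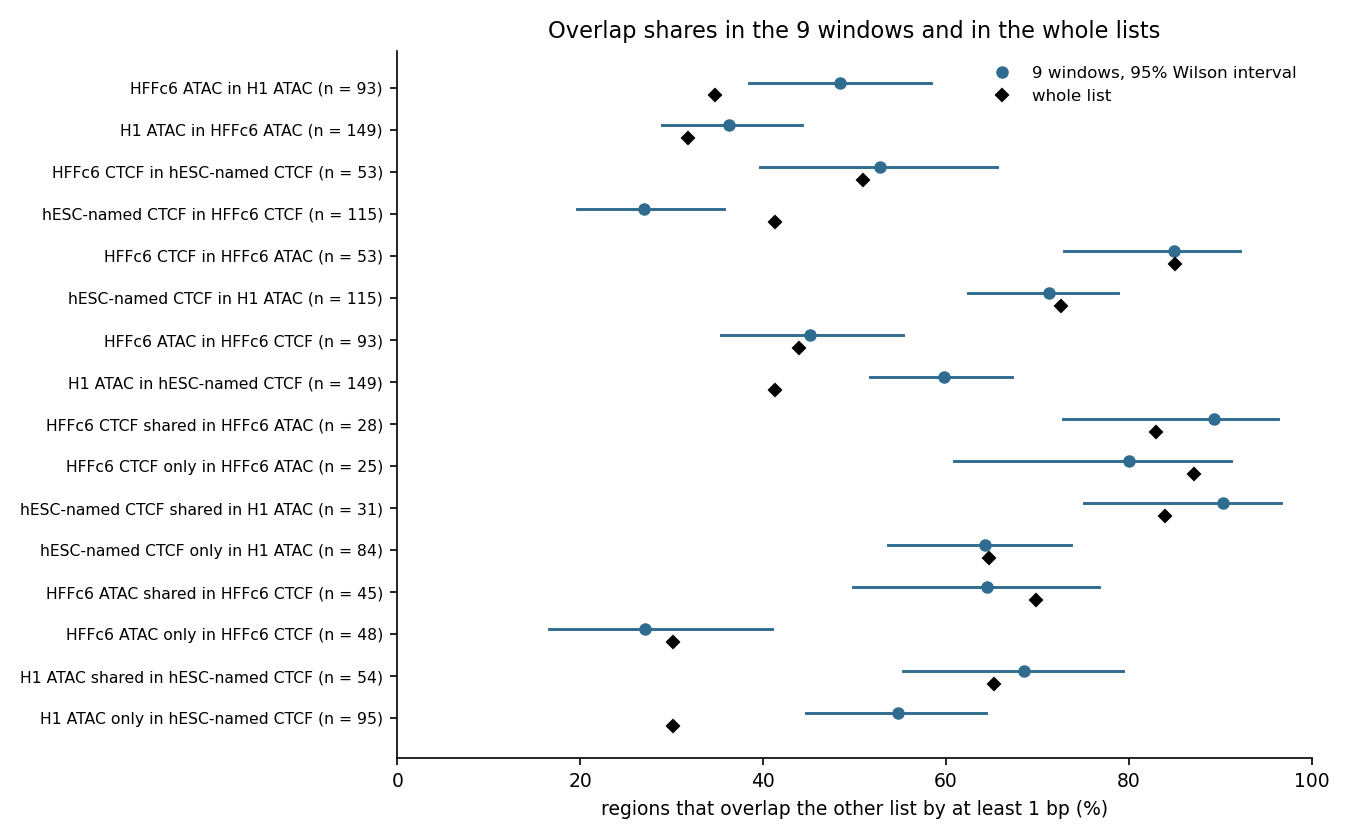
Share of regions that overlap the second list named by at least 1 bp, in percent; circles with bars are the 9 windows with 95% Wilson intervals, and diamonds are the whole lists. The diamond lies outside the bar for HFFc6 ATAC in H1 ATAC, hESC-named CTCF in HFFc6 CTCF, all H1 ATAC in hESC-named CTCF and H1-only ATAC in hESC-named CTCF.

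Other genes of neural development were set beside the 9. Of 41 such genes, 7 had more HFFc6-only and 32 more H1-only ATAC regions, and 2 had equal numbers, with a median difference of -3. The largest differences towards H1 were at LMX1A, a factor of midbrain dopamine neurons, with 2 HFFc6-only and 22 H1-only regions, SOX11 with 0 and 13, and SOX2, a factor of pluripotent and neural stem cells, with 4 and 14. Towards HFFc6 they were at the Notch ligand gene DLL1, with 10 HFFc6-only and 3 H1-only regions, IRX3 with 7 and 4, and POU3F1 with 8 and 5. The windows of ZIC4 and ZIC5 overlap those of ZIC1 and ZIC2. For CTCF, 7 of the 41 had more HFFc6-only and 33 more hESC-named-only regions. At the gene ends, 31 of the 41 had an ATAC region in both lines, 0 in HFFc6 alone and 9 in H1 alone.

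The 10 genes of endoderm and mesoderm divided evenly, with 5 each way and a median difference of -1.5. For CTCF, 1 of these had more HFFc6-only and 9 more hESC-named-only regions. Of 10 housekeeping genes, 6 had more HFFc6-only and 3 more H1-only ATAC regions, with a median of 2.5. The difference between these lists was not tested.

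The lists were also read at marker genes of the cell types. Of 6 fibroblast genes, 5 (COL1A1, COL1A2, COL3A1, PDGFRB and FAP) had an ATAC region at a gene end in both lines and THY1 in neither, and none was open in HFFc6 alone. In their windows HFFc6-only regions were the more numerous at COL1A1, COL1A2, COL3A1 and PDGFRB and H1-only regions at THY1 and FAP; COL1A2 had 19 HFFc6-only and 6 H1-only regions. Of 6 pluripotency genes, 3 were open at an end in H1 alone, SOX2 and NANOG in both lines, and POU5F1 in neither, with 4 HFFc6-only and 7 H1-only regions in its window. Of 3 keratinocyte genes, KRT5 and TP63 were open at an end in H1 alone and KRT14 in neither, and of 3 melanocyte genes MITF and PMEL were open in both lines and TYR in H1 alone.

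The genes most like OTX2 in their counts were OLFM3, CDH7 and ELAVL4. Likeness was the distance over 6 log2(count + 1) values, the HFFc6-only, H1-only and shared ATAC counts and the same for CTCF, each from 1 list. The counts were not adjusted for window length. OLFM3 lay at a distance of 0.13, with 0 HFFc6-only and 15 H1-only ATAC regions and 0 HFFc6-only and 11 hESC-named-only CTCF regions. CDH7 lay at 0.16, with 14 H1-only ATAC regions, and ELAVL4 at 0.28, with 18. None of the 3 had a HFFc6 region of either kind.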

How the data were processed

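ATAC-seq mapped accessible DNA in HFFc6 and H1 cells and Cut&Tag mapped CTCF in HFFc6 cells; with the hESC-named CTCF list, the deposited values are 4 narrowPeak lists on hg38. The tools were bedtools, MACS2 and BWA, per the submitters' processing notes; the sources used here do not give versions, filters, controls, replicate handling or depth. Each deposited list gives a fold enrichment, the authors' ratio of signal over background for a peak, and a −log10 q-value; every deposited peak had a q below 0.05. Both are the authors' own and were used only to rank or filter peaks within a list. The members and gene lists were chosen with earlier results of these data known.

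Regions on chromosomes 1 to 22 and X were used. Gene positions and start sequences came from RefSeq (GRCh38.p14), and all 9 genes matched by symbol. Overlaps were computed in Python 3.11.15 with NumPy 2.4.6, and intervals with SciPy 1.17.1 (Wilson, 95%). The overlap code was tested on simulated intervals. Fixed naming rules gave, per gene, the region with the highest fold in each class, the 3 other neural genes at each extreme and the 3 genes most like OTX2; the other genes and regions named were chosen after their values were seen. Alternatives were a −log10 q of at least 10, 50% coverage, windows of 10 and 100 kb, equal list lengths, 500 bp about summits, the nearest gene end, and gene ends within 500 bp or 2 kb.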

Additional observations from a re-analysis of the deposited data

How the results depend on the processing

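No paired analysis was possible because each list is pooled over its libraries and holds no value per library, and for the same reason no library could be left out. Of 71 recomputed totals and shares, 54 stayed within their interval or within 1.5 times; of 117 recomputed differences of single genes, 64 did, 43 moved by more without turning (3 of these, all at NES, to 0) and 10 turned. The causes of these changes were not tested beyond what each alternative does by construction. With a −log10 q of at least 10, fewer regions remained: 4 genes had more H1-only regions, H1-only regions fell to 51, the share of HFFc6 ATAC regions found in H1 was 31.5%, and 71.4% of HFFc6 CTCF regions were in the hESC-named list and 96.4% in HFFc6 ATAC; 2 genes kept an open end in both lists. The HFFc6-only minus H1-only difference then turned to 1 at PAX6, 3 at NES and 3 at LHX2, and the CTCF difference to 1 at LHX2 and -1 at HES5. With 50% coverage, HFFc6-only regions numbered 81, the HFFc6 share found in H1 was 12.9%, and the CTCF shares in ATAC were 69.8% for HFFc6 and 44.3% for the hESC-named list, and NES turned to 4. With 10 kb on each side there were 20 HFFc6-only and 43 H1-only regions, HES5 turned to -1 for ATAC and -1 for CTCF, and ZIC1 to 2; with 100 kb there were 76 and 152. With 500 bp about summits 66.0% of HFFc6 CTCF regions lay in HFFc6 ATAC, with equal list lengths 79.3% of hESC-named CTCF regions lay in H1 ATAC, with the nearest gene end HES5 was -1, and within 2 kb of an end 1 gene was open in H1 alone. The CTCF count of 8 of 9 genes stayed at 8 under the alternatives, which were added for it after seeing the data. It was not always the same 8 genes. HES5 joined and LHX2 left with the limit on q, and HES5 joined and NES left, at 0, with 10 kb on each side. The depth behind each list is unknown, so regions missing from a list were not called at that depth and are not shown to be closed.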
